A study of Coprinopsis cinerea AmutBmut pab1-1 with 7 samples.

Results

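The 4 genes of *Coprinopsis cinerea* that the study places in the expansin family of its cell wall gene table were followed over 7 RNA libraries, out of 14242 genes counted. They carry the protein IDs 167773, 464389, 421450 and 496836. The table lists them because each was called different in at least 1 mutant on these same libraries, so a call against wild type is not independent evidence for any of them, and the number of calls among them cannot be read as a result about the family.

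The libraries were 3′ end mRNA libraries (QuantSeq, 1 read per transcript near its poly(A) tail) of vegetative mycelium from *cre1* deletion strain Δ*cre1*-43 (2 libraries), *cre1* deletion strain Δ*cre1*-91 (2 libraries) and the control strain, here wild type (3 libraries). All strains share the *C. cinerea* AmutBmut pab1-1 background, a homokaryon that fruits without a mate and needs para-aminobenzoic acid, and in each mutant the *cre1* gene was to be replaced with the *pab1* marker by Cas9 ribonucleoprotein and a split-marker cassette, so that the mutants also differ from wild type in carrying that marker. Each mutant strain is 1 transformant. The study reports PCR screens and sequencing of flanking fragments that placed the marker at the *cre1* locus in both strains. The marker end of the downstream fragment gave no good sequence for Δ*cre1*-43. By the study's account the DNA of both strains still gave a small *cre1* fragment after many PCR cycles. All were grown on YMG medium with 0.2% glucose over cellophane at 28°C, kept dark, and collected at 84 h, and no source says that the libraries of a strain came from separate cultures, so that p-values measure only the spread between these libraries.

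Expansins are proteins that loosen cell walls without cutting the polysaccharides. They were first known from plants, where they act between cellulose and the polymers bound to it, and fungi make related proteins that can swell or disperse cellulose and that may be produced together with the enzymes that digest it. The fold most often used to recognise them is the RlpA-like double-psi beta-barrel. Cre1 is the zinc finger repressor of carbon catabolite repression, which keeps genes for the use of complex carbon sources low while glucose is present.

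The reads assigned to genes numbered 6232853 to 8459151 in the Δ*cre1*-43 libraries, 7977328 to 8514379 in the Δ*cre1*-91 libraries and 10196878 to 10784958 in the wild type libraries. Levels are given as CPM, counts divided by the reads of the library and scaled by trimmed mean of M values (TMM). Counts were rounded to whole numbers before CPM were taken, which matters most for genes with few reads. On this scale 1 count was worth 0.118 to 0.150 CPM in Δ*cre1*-43, 0.127 to 0.128 CPM in Δ*cre1*-91 and 0.0924 to 0.0974 CPM in wild type. The *cre1* gene itself, protein ID 466792, had 58 and 69 counts in the Δ*cre1*-43 libraries and 67 and 49 in the Δ*cre1*-91 libraries, against 94.5, 81 and 122 in the wild type libraries. Its log2 fold change was -0.14 ± 0.27 (SE) in Δ*cre1*-43 and -0.33 ± 0.27 in Δ*cre1*-91, with adjusted p = 0.851 and 0.495 by the edgeR quasi-likelihood test with Benjamini-Hochberg adjustment. No loss of *cre1* reads was detectable, whether the counted 3′ part of the gene lies inside the deletion was not checked, and the mutant libraries are therefore named by their labels, Δ*cre1*-43 or Δ*cre1*-91, throughout. The limits of the study were kept, so a call here needs both an adjusted p of 0.05 or less and a 2-fold or larger change. At these limits 4.82% of all genes were called higher and 2.16% lower in Δ*cre1*-43, and 4.97% higher and 3.35% lower in Δ*cre1*-91, and both mutants were set against the same 3 wild type libraries.

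The 4 gene models differed in size and layout. Expansin gene 167773 lies on scaffold 315 of the gene models the study supplies, from base 23894 to 25785 on the minus strand, with 5 coding exons and 912 coding bases. Expansin gene 464389 lies on scaffold 165, from base 16516 to 22079 on the plus strand, and its 18 coding exons hold 3090 coding bases. That is longer than most genes: 5.89% of all models had a longer coding length, and 1.44% had more coding exons. Expansin genes 421450 and 496836 are short and lie on the same scaffold, 47. Gene 421450 runs from base 76809 to 77702 on the plus strand with 3 coding exons and 393 coding bases. Gene 496836 runs from base 89953 to 91023 on the minus strand with 5 coding exons and 423 coding bases. The spans include the overhang of 400 bases that the models add after the coding end to catch 3′ reads. Coordinates are on the *C. cinerea* Amut1Bmut1 pab1-1 v1.0 assembly, to which the study mapped its reads.

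**Figure D1:**
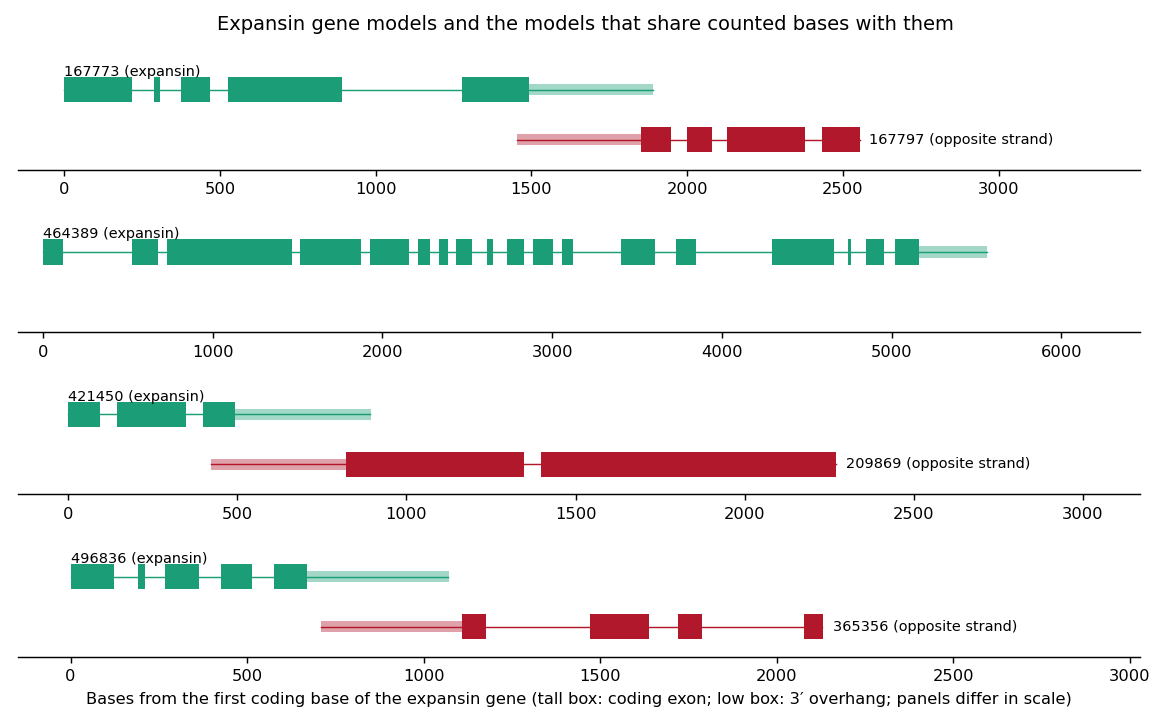
Coding exons (tall boxes) and the 3′ overhang (low boxes) of the 4 expansin gene models, with the opposite-strand models that share counted bases with them, drawn in bases from the first coding base of each expansin gene. Genes 167773, 421450 and 496836 each meet a neighbour tail to tail, and 464389 meets none.

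Expansin genes 167773, 421450 and 496836 each share counted bases with a gene on the opposite strand that runs toward them. For 167773 these were 439 bases, or 33.5% of its counted bases, for 421450 they were 473 bases (59.6%) and for 496836 they were 362 bases (44%), and they hold all or most of the 3′ overhang where this library type puts its reads. Whether the authors' counting used strand is not given in the sources used here. Without strand, reads of such a pair cannot be told apart, so the partners' values are set beside each gene below. Only 464389 has no such partner.

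Expansin gene 167773 gave the most reads of the 4 genes in the mutants and was higher in both of them. It had 410 and 207 CPM in the Δ*cre1*-43 libraries and 362 and 499 CPM in the Δ*cre1*-91 libraries, against 50.8, 50.4 and 51.1 CPM in the wild type libraries. Every mutant library stood above every wild type library, and the ranges of the 2 mutants overlapped. In RNA of whole mycelium, a change in the share of cells with a transcript and a change in its amount per cell cannot be told apart. It is also the member whose family name has a domain behind it in the InterPro annotation held here, where it carries the RlpA-like double-psi beta-barrel domain superfamily. The InterPro annotation was held in shortened form, and the other 3 members are not among the genes used from it, so the expansin label could not be checked for them.

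The means of 167773 were 308.7 ± 143 CPM in Δ*cre1*-43 (SD, n = 2) and 430.6 ± 96.4 CPM in Δ*cre1*-91 (SD, n = 2), against 50.80 ± 0.35 CPM in wild type (SD, n = 3). In Δ*cre1*-43 the log2 fold change was 2.60 ± 0.22 (SE; 95% confidence interval 2.14 to 3.07), which is 6.07-fold, with adjusted p = 1.02e-07 by the edgeR quasi-likelihood test. In Δ*cre1*-91 it was 3.08 ± 0.22 (2.62 to 3.55), or 8.47-fold, with adjusted p = 9.04e-09 by the same test. Among genes with a mean of at least 10 counts, larger rises were fitted for 1.23% in Δ*cre1*-43 and for 0.889% in Δ*cre1*-91. With both mutants in 1 contrast, the log2 fold change was 2.84 ± 0.20, or 7.17-fold, with adjusted p = 6.15e-09 by edgeR.

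The 3 wild type values of 167773 lay close to each other, with an SD of 0.010 on the log2 scale, and 99.6% of the 9789 genes with a mean of at least 10 counts had a larger one. An SD of 3 libraries is rough, and how this one compares with counting error was not tested. The Δ*cre1*-43 libraries were apart by comparison, with an SD of 0.696 on the log2 scale against a median of 0.212 over the same genes, and 8.78% of genes had a larger one. The size of the rise in Δ*cre1*-43 differed with the library kept: the log2 fold change was 2.03 without Δ*cre1*-43 replicate 1 and 3.00 without Δ*cre1*-43 replicate 2, and the call stood in both. Its opposite-strand partner 167797, which the InterPro annotation describes as the Spc24 subunit of the kinetochore, had far fewer counts, 240 and 244 in Δ*cre1*-43 and 195 and 238 in Δ*cre1*-91, against 252, 187 and 246 in wild type. The partner's log2 fold changes were 0.60 ± 0.20 and 0.36 ± 0.20, neither past the 2-fold limit (adjusted p = 0.0483 and 0.25 by edgeR), and its counts were below those of 167773 in every library.

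**Figure D2:**
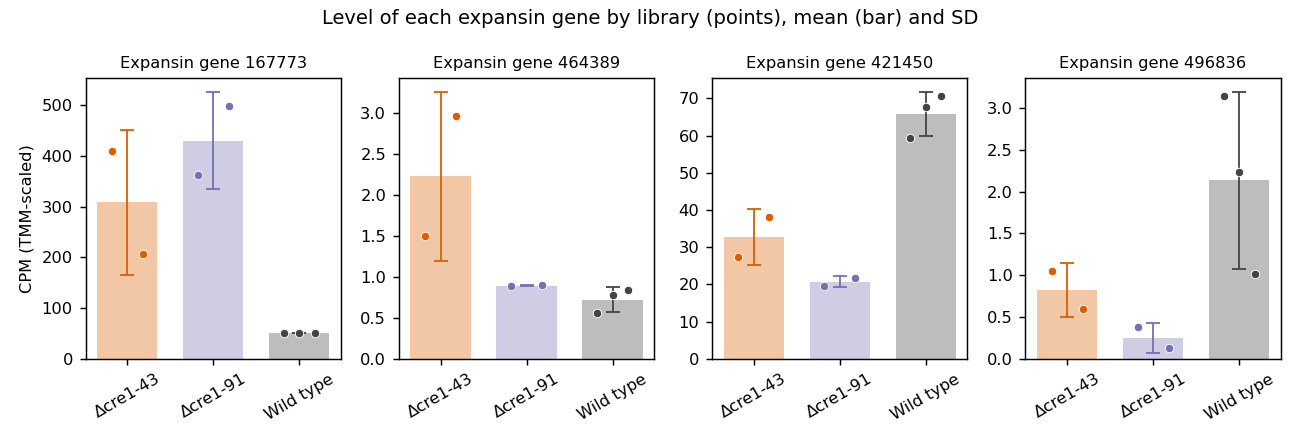
CPM (TMM-scaled) of each expansin gene in the 7 libraries (points), with the strain mean (bar) and SD (whisker), Δ*cre1*-43 and Δ*cre1*-91 with 2 libraries each and wild type with 3, each panel on its own scale from 0. Gene 167773 stands at 207 to 499 CPM in the mutant libraries and at 50.4 to 51.1 CPM in wild type, gene 421450 is lower in all 4 mutant libraries, and genes 464389 and 496836 stay at 3.14 CPM or less.

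Expansin gene 464389, the long model, was read only a few times per library. It had 10 and 25 counts in the Δ*cre1*-43 libraries and 7 and 7 in the Δ*cre1*-91 libraries, against 6.14, 8 and 9 in the wild type libraries. In CPM these were 1.50 and 2.96, then 0.888 and 0.896, against 0.554, 0.779 and 0.835 in wild type. Each mutant library was above each wild type library, but those of Δ*cre1*-91 stood above the highest wild type library by less than the worth of 1 count. The means were 2.229 ± 1.03 CPM in Δ*cre1*-43 and 0.8918 ± 0.00552 CPM in Δ*cre1*-91 (SD, n = 2 each), against 0.7229 ± 0.149 CPM in wild type (SD, n = 3).

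By edgeR here the gene was called in neither mutant, whereas the study, which used edgeR and limma, lists it among its differentially expressed genes. Its log2 fold change was 1.62 ± 0.61 (95% confidence interval 0.37 to 2.91) in Δ*cre1*-43, with adjusted p = 0.0763 by edgeR, and 0.30 ± 0.68 (-1.13 to 1.73) in Δ*cre1*-91, with adjusted p = 0.893. From the pooled reads alone, the ratio to wild type was 3.21 (exact 95% interval 1.84 to 5.69) in Δ*cre1*-43 and 1.24 (0.588 to 2.51) in Δ*cre1*-91, and these intervals cover counting error only. The value in Δ*cre1*-43 passed the limits with limma voom (adjusted p = 0.0478) and with low-count genes removed by filterByExpr (adjusted p = 0.0456), and its adjusted p reached 0.437 over the other alternatives. At this depth a change in Δ*cre1*-91 was not detectable.

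Expansin gene 421450 was lower in both mutants, with its lowest values in Δ*cre1*-91. It had 27.3 and 38.1 CPM in the Δ*cre1*-43 libraries and 19.7 and 21.8 CPM in the Δ*cre1*-91 libraries, against 59.3, 67.8 and 70.6 CPM in the wild type libraries. No mutant library reached any wild type library, and both Δ*cre1*-43 libraries stood above both Δ*cre1*-91 libraries. The means were 32.71 ± 7.6 CPM and 20.71 ± 1.48 CPM (SD, n = 2 each), against 65.90 ± 5.89 CPM in wild type (SD, n = 3).

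In Δ*cre1*-91 the log2 fold change of 421450 was -1.67 ± 0.19 (95% confidence interval -2.08 to -1.26), with adjusted p = 4.98e-06 by edgeR, and the call stood under all 19 alternatives. In Δ*cre1*-43 it was -1.01 ± 0.19 (-1.40 to -0.61), with adjusted p = 0.000932, which is just past the 2-fold limit. That call was lost in 9 of 19 alternatives because the estimate fell short of 2-fold, while the adjusted p stayed at 0.0365 or less in all of them. Leaving out Δ*cre1*-43 replicate 1 gave -0.79, wild type replicate 2 gave -0.98 and wild type replicate 3 gave -0.95. The opposite-strand partner 209869 had 73.38 and 121.25 counts in Δ*cre1*-43 and 75.67 and 71.27 in Δ*cre1*-91, against 107.25, 126 and 99 in wild type, with log2 fold changes of 0.28 ± 0.24 and -0.16 ± 0.25 (adjusted p = 0.542 and 0.796 by edgeR).

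Expansin gene 496836 was scarce in every strain and lowest in Δ*cre1*-91. It had 7 and 5.08 counts in the Δ*cre1*-43 libraries and 3 and 1.25 in the Δ*cre1*-91 libraries, against 34, 23.2 and 11 in the wild type libraries. In CPM, for which counts were rounded first and 1.25 entered as 1, these were 1.05 and 0.591, then 0.381 and 0.128. Wild type had 3.14, 2.24 and 1.02. The Δ*cre1*-91 libraries lay below all wild type libraries, whereas Δ*cre1*-43 replicate 1 was slightly above wild type replicate 3. The means were 0.8213 ± 0.325 CPM and 0.2543 ± 0.179 CPM (SD, n = 2 each), against 2.134 ± 1.06 CPM in wild type (SD, n = 3), and the wild type libraries differed among themselves, with an SD of 0.809 on the log2 scale and a larger one in 2.58% of the genes with a mean of at least 10 counts.

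In Δ*cre1*-91 the log2 fold change of 496836 was -3.00 ± 0.83 (95% confidence interval -4.81 to -1.32), with adjusted p = 0.0138 by edgeR, and it was called lower. From the pooled reads alone the ratio to wild type was 0.119 (exact 95% interval 0.0316 to 0.32), resting on 4 counts in Δ*cre1*-91. The call was lost without Δ*cre1*-91 replicate 1 (log2 fold change -3.95, adjusted p = 0.0522), Δ*cre1*-91 replicate 2 (-2.44, 0.143), wild type replicate 1 (-2.61, 0.103) or wild type replicate 2 (-2.96, 0.0579), and with limma voom (-2.76, 0.065) and counts thinned to the smallest library (-2.38, 0.0653), while the estimate stayed past the 2-fold limit in all 19 alternatives. In Δ*cre1*-43 the log2 fold change was -1.39 ± 0.68 (-2.83 to 0.02), with adjusted p = 0.195, and no call was made.

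The opposite-strand partner of 496836, gene 365356, ran the other way. It had 12.25 and 14.75 counts in Δ*cre1*-43 and 4.5 and 10 in Δ*cre1*-91, against 1.75, 3 and 0.5 in wild type. Its log2 fold change was 3.39 ± 0.92 in Δ*cre1*-43 (adjusted p = 0.013 by edgeR, called higher) and 2.40 ± 1.00 in Δ*cre1*-91 (adjusted p = 0.0969, not called). How the bases shared with this partner enter the values of 496836 was not tested.

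**Figure D3:**
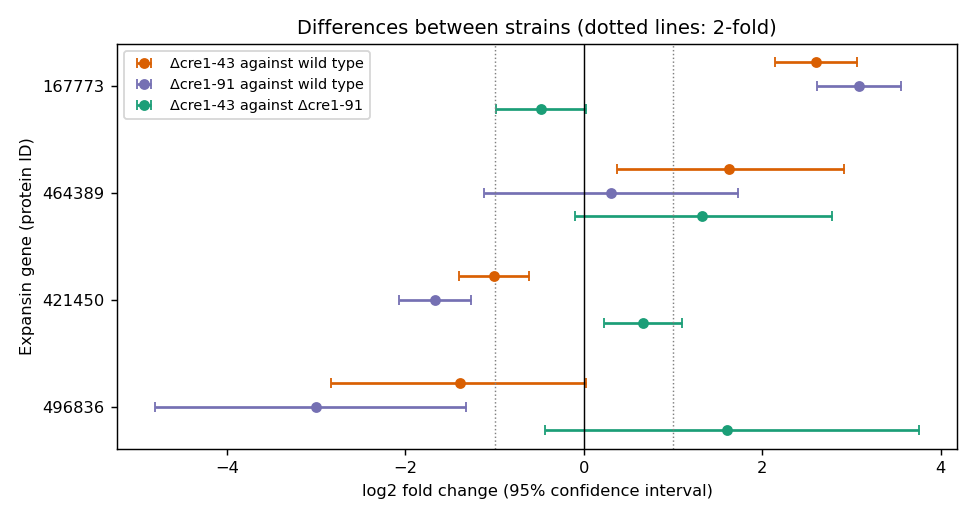
Log2 fold change with its 95% confidence interval for each expansin gene in Δ*cre1*-43 against wild type, Δ*cre1*-91 against wild type and Δ*cre1*-43 against Δ*cre1*-91, from 1 edgeR fit of all 7 libraries; dotted lines mark 2-fold. Gene 167773 lies at 2.60 and 3.08 against wild type, 421450 at -1.01 and -1.67, and the intervals of 464389 and 496836 are wide.

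Counted over the 4 genes, 2 were called in Δ*cre1*-43 (1 higher, 1 lower), beside 6.97% of all genes, and 3 in Δ*cre1*-91 (1 higher, 2 lower), beside 8.32% of all genes. With both mutants together against wild type 3 were called, beside 7.81% of all genes. These were 1 higher, beside 4.95% of all genes, and 2 lower, beside 2.86%. In that contrast gene 496836 had a log2 fold change of -2.19 ± 0.60 (adjusted p = 0.0105 by edgeR), gene 421450 one of -1.34 ± 0.15 (adjusted p = 2.69e-06) and gene 464389 one of 0.96 ± 0.55 (adjusted p = 0.249). Both mutants lay wholly above wild type for 2 members, beside 13% of all genes, and wholly below it for 1 member, beside 13.7%. For each mutant alone, 2 members lay wholly above wild type and 1 wholly below it in Δ*cre1*-43, beside 21.1% and 20.3% of all genes, and 2 above and 2 below in Δ*cre1*-91, beside 21.7% and 22%. The members thus did not share a direction: their median log2 fold change was 0.31 in Δ*cre1*-43 and -0.69 in Δ*cre1*-91, with a median over all genes of 0 in each.

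The mutant strains were also set against each other, a contrast whose estimate does not use the wild type libraries. Its spread was taken from all 7 libraries. The same mutant libraries served to list the genes, so this contrast is not independent of that choice either. No expansin gene was called different between the Δ*cre1*-43 strain and the Δ*cre1*-91 strain with edgeR, beside 0.246% of all genes. None was with DESeq2, which called 62 genes of all. With limma voom 0 genes of all were called, so that fit says nothing particular to these members. At an unadjusted p under 0.05 there was 1 member, beside 11.2% of all genes. It was 421450, with a log2 difference of 0.66 ± 0.21 (95% confidence interval 0.23 to 1.10; adjusted p = 0.191 by edgeR). Gene 167773 differed by -0.48 ± 0.24 (-0.98 to 0.02; adjusted p = 0.474) and 464389 by 1.33 ± 0.69 (-0.10 to 2.78; adjusted p = 0.497). Gene 496836 differed by 1.61 ± 1.00 (-0.44 to 3.76; adjusted p = 0.595). The intervals leave room for differences of up to 2-fold in 167773 and of more than that in the others, and for 3 of the 4 genes both Δ*cre1*-43 libraries were above both Δ*cre1*-91 libraries, beside 16.6% of all genes.

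The make-up of the reads of these 4 genes differed between the mutants and wild type. The genes were listed for calls on these same libraries, so the shift is not independent of that choice. Gene 167773 gave 93.2% and 83.3% of the reads of the 4 genes in the Δ*cre1*-43 libraries and 94.5% and 95.6% in the Δ*cre1*-91 libraries, against 44.6%, 41.6% and 41.4% in the wild type libraries. The Wilson 95% intervals of these shares ran from 81.6% upward in the mutants, against no more than 47.4% in wild type, and cover counting error only. Gene 421450 gave 6.21% and 15.3% in Δ*cre1*-43 and 5.14% and 4.17% in Δ*cre1*-91, against 52.1%, 55.9% and 57.1% in wild type. Wild type mycelium thus had slightly more reads of 421450 than of 167773, and the mutants had many more of 167773.

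Set as a ratio within each library, which no scaling between libraries can move, the reads of 167773 over those of 421450 were 15.0 and 5.44 in Δ*cre1*-43 and 18.4 and 22.9 in Δ*cre1*-91, against 0.857, 0.744 and 0.724 in wild type. The ratio was over 5 in all mutant libraries and under 1 in all wild type libraries. Summed over the 4 genes, the level was 344.5 ± 135 CPM in Δ*cre1*-43 and 452.5 ± 97.8 CPM in Δ*cre1*-91 (SD, n = 2 each), against 119.5 ± 5.11 CPM in wild type (SD, n = 3), which is 2.88 and 3.79 times the wild type mean. Gene 167773 carried that sum in the mutants, as its shares show. Ratio and sum rest on genes listed for calls on these libraries. The sum is not a level of the whole family, since it leaves out genes not listed, such as 359952 with its RlpA-like domain, described below. Reads of this library type come from transcript ends and are not divided by length.

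**Figure D4:**
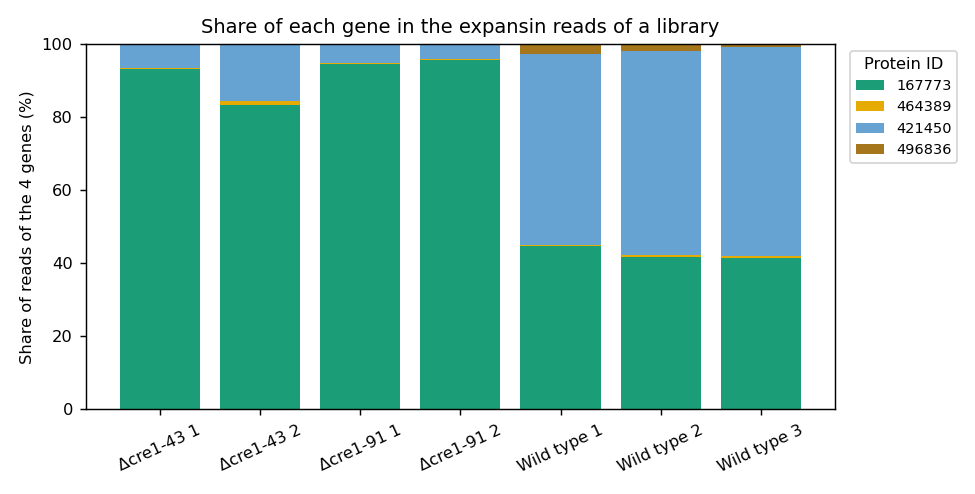
Share (%) of each gene in the reads of the 4 expansin genes in every library, with the 4 mutant libraries left of the wild type libraries. Gene 167773 fills 83.3% to 95.6% of each bar in the mutants and 41.4% to 44.6% in wild type, where 421450 fills 52.1% to 57.1%.

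The InterPro annotation gave the RlpA-like domain to 2 further genes, 286849 and 359952. They are not among the expansins of the study's cell wall table. That table holds differentially expressed genes only, so it does not tell how the study would class them. Gene 286849 had 31.1 and 36.2 CPM in Δ*cre1*-43 and 21.9 and 24.4 CPM in Δ*cre1*-91, against 13.3, 18.4 and 12.3 CPM in wild type, so that all mutant libraries stood above wild type. Its log2 fold change was 1.20 ± 0.21 in Δ*cre1*-43 (adjusted p = 0.000516 by edgeR, called higher) and 0.66 ± 0.21 in Δ*cre1*-91 (adjusted p = 0.0367, under the 2-fold limit). Gene 359952 gave many more reads and was lower in all mutant libraries, with 855 and 826 CPM in Δ*cre1*-43 and 881 and 812 CPM in Δ*cre1*-91, against 1180, 1150 and 1100 CPM in wild type. Its log2 fold changes of -0.44 ± 0.13 and -0.43 ± 0.13 had adjusted p = 0.0241 and 0.0236 by edgeR and stayed under the 2-fold limit. Neither gene was called in Δ*cre1*-91.

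Expansins are set beside cellulose-degrading enzymes in the study's gene table, and the 42 other genes that table names for cellulose moved mostly 1 way. Of these, 38 were called higher and 1 lower in Δ*cre1*-43, and 38 higher and 0 lower in Δ*cre1*-91, with median log2 fold changes of 3.26 and 3.02. That list was drawn by the study from these libraries, so it is no independent evidence of direction. Gene 167773, at 2.60 and 3.08, was near the median of that list, and 421450 and 496836 lay on the other side of 0. The study's 19 fungal cell wall genes, drawn from the same libraries, went both ways. In each mutant 9 were called higher and 6 lower, with medians of 1.04 in Δ*cre1*-43 and 0.49 in Δ*cre1*-91. Of all genes, 4.82% were called higher and 2.16% lower in Δ*cre1*-43, and 4.97% higher and 3.35% lower in Δ*cre1*-91.

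Cellulose-related genes that were not drawn from these libraries were taken from the InterPro annotation. Of 12 genes with a fungal cellulose-binding domain, 5 were called higher in Δ*cre1*-43 and 4 in Δ*cre1*-91, with 0 lower in either, and the medians were 1.45 and 0.85. Of 10 genes of glycoside hydrolase family GH61, now known as lytic polysaccharide monooxygenases that cut cellulose by oxidation, 5 were called higher and 0 lower in Δ*cre1*-43, and 4 higher and 1 lower in Δ*cre1*-91, with medians of 2.12 and 1.98. Of these 2 lists together, 7 of 20 genes are also in the study's cellulose list. Beside these, 4.82% of all genes were called higher and 2.16% lower in Δ*cre1*-43, and 4.97% higher and 3.35% lower in Δ*cre1*-91. The median over all genes was 0 in both comparisons.

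The genes around the expansin genes were read for the same calls. Genes 421450 and 496836, both called lower in Δ*cre1*-91, lie 12250 bases apart with 5 models between them, of which 1 was called higher in Δ*cre1*-43 and none was called in Δ*cre1*-91 by edgeR. That 1 is the partner 365356 described above. Of the other 55 models on scaffold 47, 1 was called higher and 0 lower in Δ*cre1*-43, and 0 higher and 1 lower in Δ*cre1*-91, beside 6.97% and 8.32% of all genes called in either direction. Of the 15 other models on scaffold 315, 1 was called higher and 0 lower in each mutant. Of the 20 other models on scaffold 165, 2 were called higher and 1 lower in Δ*cre1*-43, and 1 higher and 2 lower in Δ*cre1*-91. Near 464389 the closest models did pass in part: 374867, with a gap of 99 bases, had a log2 fold change of 1.08 ± 0.22 in Δ*cre1*-43 (adjusted p = 0.00205 by edgeR, called higher) and 0.59 ± 0.22 in Δ*cre1*-91 (adjusted p = 0.0744). On the other side 374882, with a gap of 1183 bases, had -0.28 ± 0.34 in Δ*cre1*-43 (adjusted p = 0.705) and -1.40 ± 0.37 in Δ*cre1*-91 (adjusted p = 0.0123, called lower). The neighbour of 167773 on the side away from its partner, 502644, had 0.74 and 0.79 (adjusted p = 0.0243 and 0.0139), both under the 2-fold limit, so 167773 was the only one of these 3 adjoining models to be called. The outer neighbours of the pair on scaffold 47 were 496831, with no or almost no reads, and 209971, which was called in neither mutant.

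For each expansin gene the genes whose log2 CPM profile over the 7 libraries came nearest to its own were found among the 9788 other genes with a mean of at least 10 counts, by the root mean square difference after each profile was centred. These pairs are a description, since all profiles share libraries. The nearest to 167773 were 443381, 427525 and 544684, at 0.313, 0.323 and 0.340. Gene 544684 is listed by the study as AA3_2, a family of oxidoreductases of the glucose-methanol-choline type, and it had 15.3 and 15.6 CPM in Δ*cre1*-43 and 19.7 and 22.1 CPM in Δ*cre1*-91, against 3.42, 3.41 and 2.60 CPM in wild type. The nearest to 421450 lay closer, with 245232, which the InterPro annotation gives an ABC transporter-like domain, at 0.131. The nearest to 464389 was 384414 at 0.183, and the nearest to 496836 was 419431 at 0.408.

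No expansin gene was among the 3 nearest of another, out of 9788 genes compared, so few genes could have been. The study listed the members for calls in both directions on these libraries, so distances between them are not independent of that choice. The 3 nearest to 496836 lay at 0.408, 0.452 and 0.474, with 421450 at rank 172 and 0.843. In the list of 421450, gene 496836 stood at the same distance but at rank 5939. The part of the low counts of 496836 (1.25 to 34 per library) in these distances was not tested. Genes 167773 and 421450 stood at 2.134 from each other, where 421450 was at rank 9532 of the list of 167773.

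**Figure D5:**
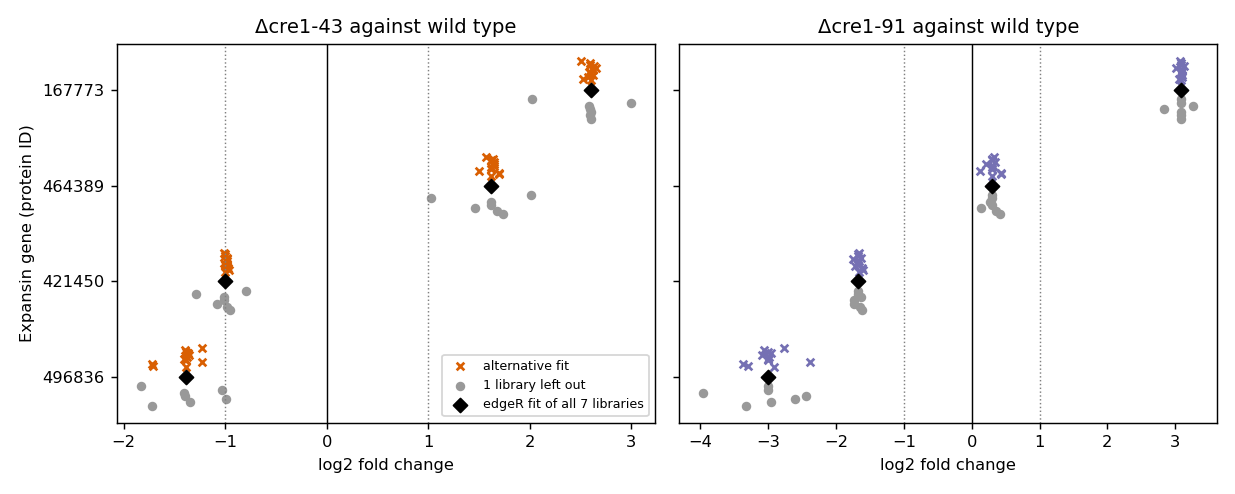
Log2 fold change of each expansin gene in Δ*cre1*-43 against wild type and in Δ*cre1*-91 against wild type in the edgeR fit of all 7 libraries (diamonds), in the other fits tried (crosses) and with 1 library left out (grey points); dotted lines mark 2-fold. Gene 167773 stays between 2.03 and 3.00 and between 2.84 and 3.26, and 421450 in Δ*cre1*-43 straddles the 2-fold line, between -1.29 and -0.79.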

How the data were processed

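Total RNA of vegetative mycelium was made into QuantSeq 3′ libraries by the authors. Per the labels, they aligned reads with STAR 2.6.1a and counted them with featureCounts, and used edgeR 3.34.0 and limma 3.48.3. The genome assembly was that of the same strain, and the strand setting is not given in the sources used here. The deposited gene table holds estimated counts, since 20.3% of its values are not whole. They were rounded to whole numbers for the test, which had been planned for whole counts, and for the CPM printed here. The deposited signal table holds CPM scaled between libraries, and CPM recomputed from the unrounded counts matched it within 0.167%. The printed CPM come from rounded counts and can differ more where reads are few. The gene models deposited with them give positions, and 96.7% of models carry an overhang of 400 bases. No table column belonged to another series, so 0 were set aside.

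All 7 libraries and all 14242 genes, without a filter, entered 1 quasi-likelihood fit (edgeR 4.0.16, R 4.3.3, TMM scaling, a coefficient per strain), with Benjamini-Hochberg adjustment over all genes. limma 3.58.1 and DESeq2 1.42.0 served as alternatives, with other scalings, filters, samples, thinned counts and each library left out. A check of the test was run on simulated data in which 200 genes with a mean of at least 10 counts were changed. Its outcome is not given here. The simulated counts were drawn with the spread that edgeR had fitted, so the check shares the assumptions of that test. The planted changes were all well past 2-fold, so the check does not cover calls near that limit. Libraries of a strain differed by more than sampling noise (chi-square over degrees of freedom 12.49 to 21.49), so none was taken as a repeat of another. A count of 0 would allow up to 3 counts, or 0.277 to 0.451 CPM. Intervals and floors cover counting error only.

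The members and gene lists were chosen with earlier results of these data known. Genes were named by rule: the 4 expansins, *cre1*, other genes with an RlpA-like domain, the nearest model on each side of each member, and the 3 genes with the nearest profiles. Lists came from the study's cell wall table and from its InterPro table, which was held in shortened form. No sequence is printed.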

Additional observations from a re-analysis of the deposited data

How the results depend on the processing

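The number of expansin genes called in Δ*cre1*-43 was 1 in place of 2 with upper-quartile scaling, with library size only and with counts thinned to the smallest library, and 1 to 2 when each library in turn was left out. In each of these cases the call that was lost was that of 421450, whose log2 fold change fell short of the 2-fold limit, at -0.79 without Δ*cre1*-43 replicate 1 and at -0.95 to -0.98 in the others. With filterByExpr the number stayed at 2, but 464389 was called and 421450 was not. The numbers called in Δ*cre1*-91, in both mutants together and between the mutants kept within 1.5 times, and no direction of a called member turned. Gene 496836 lost its call in 6 of 19 alternatives in Δ*cre1*-91 and in 5 of 19 with both mutants together, where the adjusted p reached 0.134.

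Whether the replicate numbers in the titles pair the libraries could not be settled. Over 9792 genes, the correlation of deviations from the strain means was -0.155 between same-numbered Δ*cre1*-43 and Δ*cre1*-91 libraries. It was 0.106 and 0.124 between those of Δ*cre1*-43 and wild type, and -0.033 and -0.018 between those of Δ*cre1*-91 and wild type. With 2 libraries per mutant the deviations of a gene mirror each other, so crossed numbers of the mutants must give 0.155. With the replicate number as a block, 1 expansin gene was called in Δ*cre1*-43 and 53 genes of all were called between the mutants. With the numbers of the Δ*cre1*-91 libraries crossed, an alternative chosen after seeing the data, these counts were 1 and 161. Counts left unrounded, likewise chosen after seeing the data, changed no expansin call.

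Over all genes, dropping the fold limit gave 2178, 2508 and 3057 calls in Δ*cre1*-43, Δ*cre1*-91 and both together, in place of 993, 1185 and 1113. Between the mutants the 35 calls (25 higher, 10 lower) became 106 (93 higher, 13 lower) with library size only. There the median log2 fold change of genes with a mean of at least 10 counts was 0.121, in place of 0.005. In Δ*cre1*-91 against wild type it was -0.101, in place of -0.017. The calls between the mutants were 101 with only the compared groups, 64 with thinned counts, 62 with DESeq2 and 55 with upper-quartile scaling. They were 74 with unrounded counts, 479 by unadjusted p and 0 with limma voom or with filterByExpr. With 1 wild type library left out they were 5 to 105. The causes were not tested. Depth limits 464389 and 496836 most, at 34 counts or fewer per library.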
